A study of Xenopus laevis with 11 samples.

Results

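The regions described here are the p300 binding sites of the early Xenopus laevis gastrula that lie at intermediate range from promoter-type chromatin, more than 10 kb and at most 50 kb from the nearest H3K4me3 interval. They number 6265, or 27.2% of the 23017 p300 intervals on the L and S chromosomes, and the whole series-wide p300 list holds 25010. They were chosen by one measured value, the edge-to-edge gap between intervals of the series-wide p300 and H3K4me3 lists, so that gap is described and not tested. Chromatin immunoprecipitation with sequencing (ChIP-seq) was done on whole embryos at Nieuwkoop-Faber stage 10.5, with 2 replicates per target and pools of 35 to 90 embryos fixed in 1% formaldehyde for 30 min. The labels name no genotype, strain or treatment, and all samples share this stage. Of 11 samples, the peak lists of 4 were used, both replicates of p300 and both of H3K4me3; the other 7, with H3K4me1, H3K36me3, RNA polymerase II and input, were not analysed here.

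The coactivator p300 is an acetyltransferase that acetylates histones and is brought to DNA by sequence-specific transcription factors, at promoters and at distal enhancers. H3K4me3, trimethylation of lysine 4 of histone H3, is concentrated at active and poised promoters and is low at most distal enhancers. The early gastrula is the stage at which the zygotic genome is active and the germ layers are being laid down under Nodal, Wnt and BMP signals, much of it through distal enhancers. Xenopus laevis is allotetraploid, and its chromosomes form homeologous L and S pairs that descend from different ancestral species. Every list was made from whole embryos, so a site bound in few cells and a site bound weakly in many cannot be told apart.

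The series-wide p300 list consists of the stretches that both replicates cover. Each interval therefore rests on 1 call in replicate 1 and 1 in replicate 2, and it cannot be wider than either. The lists hold positions only, with no height or score, and read depth is unknown. Replicate 2 had the longer list, with 54814 p300 calls on the L and S chromosomes against 31347 in replicate 1. For H3K4me3 the order was the other way, with 28926 calls in replicate 1 and 24154 in replicate 2. The labels do not say whether replicates came from separate clutches. Tests were therefore made over the 9 homeologous chromosome pairs, by an exact permutation test that flips the sign of each pair (two-sided, smallest possible p 0.00391), and they measure regularity across chromosomes and not across embryos. Adjusted p-values are Benjamini-Hochberg values over 18 tests, or, for a value from another setting or from 1 replicate alone, over the tests recomputed in that setting, and ± gives the SD over the 9 pairs.

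The 6265 intervals filled the whole range that defined them. Their gaps ran from 10007 to 49979 bp, with a median of 22.5 kb and quartiles of 15.2 and 33.3 kb. Those between 10 and 20 kb made up 42.8%, those between 20 and 30 kb 26.1%, those between 30 and 40 kb 17.7% and those between 40 and 50 kb 13.4%. The intervals thus became fewer with each step away from H3K4me3. The 2 intervals closest to the near bound from inside were on 8S from 61089691 to 61089833 (143 bp, gap 10007 bp) and on 2S from 135980708 to 135980879 (172 bp, gap 10012 bp). The 2 just outside were on 1S from 134798933 to 134799127 (195 bp, gap 9999 bp) and on 6S from 120589522 to 120589784 (263 bp, gap 9995 bp). At the far bound, the last intervals inside were on 2L from 176555375 to 176555537 (163 bp, gap 49979 bp) and on 4S from 22435157 to 22435368 (212 bp, gap 49975 bp). The first beyond it were on 2L from 64756475 to 64756617 (143 bp, gap 50017 bp) and on 1S from 86550262 to 86550665 (404 bp, gap 50027 bp). Coordinates are 1-based, in the build of the files, which the sources used here do not name.

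Sequence 10 to 50 kb from H3K4me3 amounted to 856 Mb, or 34.1% of the 2508 Mb spanned by peaks. The series-wide density there was 7.32 p300 intervals per Mb (Poisson 95% interval 7.14 to 7.50, counting error only). It fell within the range, from 9.32 per Mb at 10 to 20 kb to 7.15, 5.97 and then 5.45 per Mb at 40 to 50 kb. On either side it was 14.2 per Mb at 1 to 10 kb and 3.14 per Mb over 50 kb. Both replicates showed the decline. In replicate 1 the density was 12.7 per Mb at 10 to 20 kb and 7.71 at 40 to 50 kb, and in replicate 2 it was 23.4 and 16.9. Replicate 2 had 1.84 times as many calls as replicate 1 at 10 to 20 kb and 2.19 times as many at 40 to 50 kb. Because distance selected the intervals, these densities are given as a description.

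**Figure D1:**
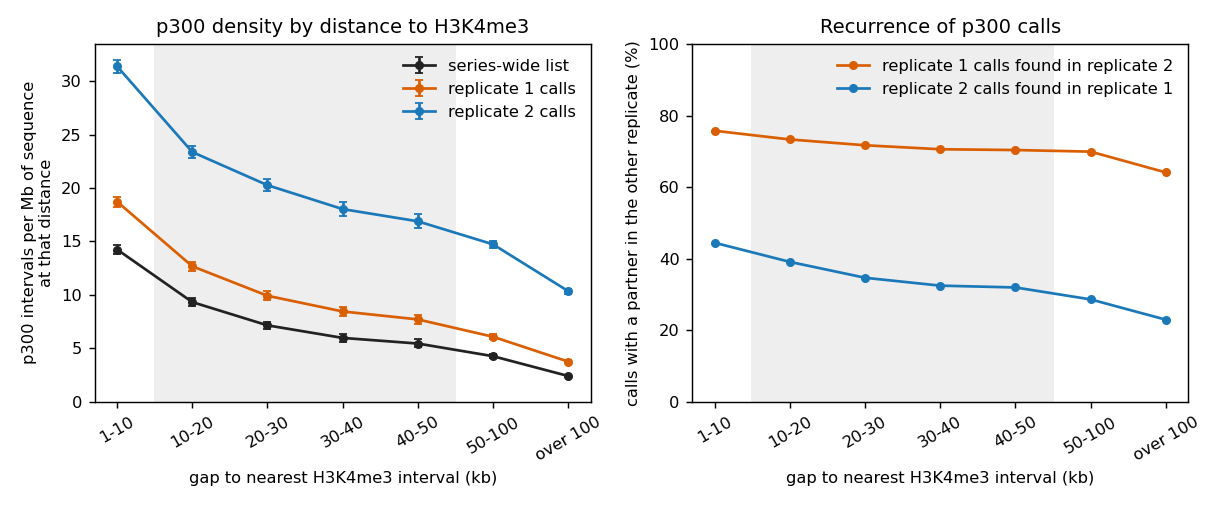
Left, p300 intervals per Mb of sequence against the gap to the nearest H3K4me3 interval in kb, for the series-wide list and each replicate (points, with Poisson 95% intervals). Right, percentage of the calls of each replicate that overlap a call of the other. The shaded bins make up the 10 to 50 kb class, in which the series-wide density went from 9.32 to 5.45 per Mb and replicate 2 stayed above replicate 1 in each bin.

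The recurrence of p300 calls lay between that of nearer and of more remote calls. Of the 8670 replicate 1 calls that lay 10 to 50 kb from H3K4me3, 72.0% (Wilson 95% interval 71.0 to 72.9%) overlapped a replicate 2 call, close to the 73.1% of all replicate 1 calls. Of the 17305 replicate 2 calls in the same range, 35.5% (34.8 to 36.3%) overlapped a replicate 1 call, compared with 41% of all replicate 2 calls. The longer list of replicate 2 thus contributed 11155 calls that replicate 1 lacked, whereas replicate 1 contributed 2429 of its own. Replicate 1 calls in the class recurred less often than those at 1 to 10 kb, by 3.73 ± 2.66 percentage points (lower in 9 of 9 pairs), and more often than those over 50 kb, by 5.19 ± 3.32 points (higher in 9 of 9 pairs). For replicate 2 the differences were -8.79 ± 2.44 points against 1 to 10 kb and 9.83 ± 2.82 points against over 50 kb, again in 9 of 9 pairs each. Each of the 4 differences had an exact sign-flip p of 0.00391 and an adjusted p of 0.00469.

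The calls made in 1 replicate alone were narrower than the recurring ones. In replicate 1 their median width was 173 bp, against 220 bp for recurring calls of the class, and in replicate 2 it was 231 against 308 bp. Of the single calls, 19.6% in replicate 1 and 13.3% in replicate 2 lay within 5 kb of one of the 6265 intervals. The share for other sequence in this range was not computed, so these values do not tell whether single calls gather near shared sites.

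The intervals were narrow: the middle 50% spanned 162 to 277 bp, around a median of 204 bp. The calls behind them had median widths of 221 bp in replicate 1 (quartiles 173 and 299 bp) and 311 bp in replicate 2 (quartiles 244 and 404 bp). Replicate 2 had the wider call at 84.5% of the intervals, against 82.8% at 1 to 10 kb and 85.7% over 50 kb. At 3759 of the sites, or 60%, the shared interval was exactly the replicate 1 call, lying wholly inside that of replicate 2. That share was 58.5% at 1 to 10 kb and 62.3% over 50 kb, so neither trait was particular to the class. The centres of both calls were a median of 27.5 bp apart. They were within 50 bp of each other at 71.8% of the sites, against 72.5% at 1 to 10 kb and 73.5% over 50 kb. The shared stretch made up a median of 68.5% of the sequence covered by either call. An interval exists only where both calls overlap, so near centres and a large shared stretch follow in part from the choice. Across the 6265 sites, which are not independent replicates, the widths of the calls had a Spearman rho of 0.52. There were 35 intervals under 50 bp, the smallest of 4 bp, and 242 came from a call that also gave another interval.

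Width decreased with distance from H3K4me3. The intervals were narrower than those at 1 to 10 kb, which had a median of 215 bp, with a log2 ratio of -0.072 ± 0.047, or 0.952-fold (narrower in 8 of 9 pairs and equal in pair 4, exact sign-flip p = 0.00781, adjusted p = 0.00827). They were wider than those over 50 kb, with a median of 190 bp, by 0.10 ± 0.05, or 1.07-fold (9 of 9 pairs, exact p = 0.00391, adjusted p = 0.00469). Both differences are small beside the quartiles. They were smaller still among all calls of replicate 2 alone, at -0.038 and 0.043, against -0.077 and 0.066 among those of replicate 1 alone.

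**Figure D2:**
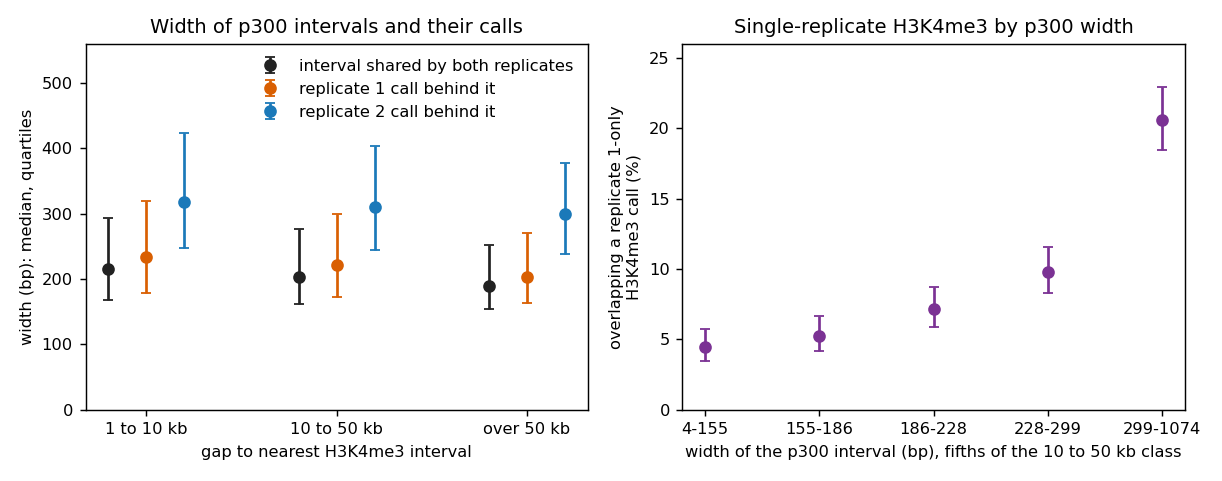
Left, width in bp of the shared p300 interval and of the replicate 1 and replicate 2 calls behind it in 3 classes of gap to H3K4me3 (points are medians, bars are quartiles). Right, percentage of the 10 to 50 kb intervals that overlap an H3K4me3 call of replicate 1 alone, in 5 equal groups by p300 width (points with Wilson 95% intervals). Medians of the shared intervals were 215, 204 and 190 bp, and the H3K4me3 share was 4.47% in the narrowest group and 20.6% in the widest.

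The 5 widest intervals were long for the class, and 3 of them lay on H3K4me3 called in replicate 1 alone. The widest was on 8L from 483114 to 484187 (1074 bp). Its calls spanned 1074 bp in replicate 1 and 1203 bp in replicate 2, and it was 17.6 kb above an H3K4me3 peak of 1580 bp. The second, on 1S from 126828911 to 126829933 (1023 bp, calls of 1087 and 1182 bp), overlapped a replicate 1 H3K4me3 call of 932 bp and had another p300 interval 298 bp away. The third, on 7S from 87868136 to 87869095 (960 bp, calls of 985 and 981 bp), coincided almost entirely with a replicate 1 H3K4me3 call from 87868122 to 87869109. The fourth, on 8L from 13226202 to 13227126 (925 bp, calls of 1021 and 956 bp), was isolated, with its nearest p300 neighbour 233.8 kb away. The fifth, on 7S from 84197764 to 84198686 (923 bp, calls of 966 and 1063 bp), overlapped a replicate 1 H3K4me3 call of 1685 bp. That both replicates gave a wide call at these sites follows from the choice, since a shared interval cannot be wider than either call.

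H3K4me3 called in a single replicate was found at 625 of the intervals, or 9.98%, and nearly all of it came from replicate 1. A replicate 1 call that overlapped no replicate 2 call lay on 593 intervals, or 9.47% (8.77 to 10.2%), and a replicate 2 call of that kind on 34, or 0.543%. Over all p300 intervals outside series-wide H3K4me3 these shares were 10.2% and 0.678%, close to those of the class. In sequence 10 to 50 kb from H3K4me3, replicate 1 had 2522 single calls that covered 0.145% of it, and 21.9% of them, or 553, touched a p300 interval of the class. Replicate 2 had 690 single calls there, of which 33, or 4.78%, did. The replicate 1 calls on p300 intervals had a median width of 523 bp, compared with 379 bp for all of its single calls in this range. The latter include the former. Overlap was counted from 1 bp, so a wider call touches a p300 interval more easily, and the part of this in the contrast was not tested.

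The share on single-replicate H3K4me3 differed from that at 1 to 10 kb by -6.68 ± 2.61 percentage points (lower in 9 of 9 pairs, exact sign-flip p = 0.00391, adjusted p = 0.00469). It was higher than over 50 kb by 2.50 ± 1.81 points (8 of 9 pairs, exact p = 0.00781, adjusted p = 0.00827). When the H3K4me3 call had to cover the centre of the p300 interval, the second difference was 1.28 ± 1.81 points and no longer passed (exact p = 0.0781, adjusted p = 0.0781). The order did not extend to p300 intervals up to 1 kb from H3K4me3. Of these, 2.59% lay on a single-replicate call of replicate 1, against 15.8% at 1 to 10 kb. They are included in the 10.2% given above for all p300 intervals outside series-wide H3K4me3. How much sequence single-replicate H3K4me3 calls cover at 1 to 10 kb and over 50 kb is not given here. Its part in the differences between classes was not tested.

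The intervals with a replicate 1 H3K4me3 call were the wider ones. Their median width was 278 bp (quartiles 197 and 358 bp), against 199 bp (160 and 267 bp) for the other 5672, a log2 ratio of 0.44 ± 0.12 or 1.36-fold (9 of 9 pairs, exact sign-flip p = 0.00391, adjusted p = 0.00469). The p300 calls of both replicates were wider there, with medians of 299 against 215 bp in replicate 1 and 363 against 306 bp in replicate 2. The ratio was 0.40 when the H3K4me3 call had to cover the p300 centre. Over 5 equal groups by width, from 4 to 155 bp up to 299 to 1074 bp, the share with such a call was 4.47%, 5.27%, 7.18%, 9.82% and 20.6%. These intervals also had a p300 neighbour within 5 kb more often, 45.7% against 32.5%, a mean difference of 13.3 ± 7.9 points over the pairs (9 of 9, exact p = 0.00391, adjusted p = 0.00469). That difference was 23.8 points among replicate 2 calls alone and 14.2 among replicate 1 calls alone. It was lowest, at 9.43 points, when p300 intervals at most 500 bp apart were merged. For gaps of more than 15 kb and at most 50 kb it was 11.7 points (positive in 7 of 9 pairs, exact sign-flip p = 0.0156, adjusted p = 0.0176). Both comparisons were added after values had been seen. H3K4me3 replicate 2 had the shorter list, 24154 against 28926 calls, and the part of this difference in the single-replicate calls was not tested.

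The 3 widest single-replicate H3K4me3 calls on an interval of the class were all from replicate 1. They lay on 6S from 16051776 to 16055196 (3421 bp, around a p300 interval of 173 bp), on 8L from 109934791 to 109937049 (2259 bp, p300 interval of 254 bp) and on 1L from 95243221 to 95245436 (2216 bp, p300 interval of 209 bp). These p300 intervals were of ordinary width for the class. On 6S and 1L the H3K4me3 call held 2 p300 calls in replicate 1 and 1 in replicate 2, and on 8L it held 1 in each.

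Another p300 interval lay within 5 kb of 2113 of the 6265 intervals, or 33.7% (32.6 to 34.9%), compared with 44.1% of all p300 intervals. The share was 56.6% at 1 to 10 kb and 22.3% over 50 kb. The class was lower than the nearer sites by 22.9 ± 3.4 percentage points and higher than the remote ones by 11.4 ± 4.0 points, each in 9 of 9 pairs (exact sign-flip p = 0.00391, adjusted p = 0.00469). Part of the difference from the 1 to 10 kb class was fixed by the rule. A p300 interval on H3K4me3 cannot lie within 5 kb of a site over 10 kb from the mark. With only neighbours outside H3K4me3 counted, that difference was -10.6 points and still passed (exact sign-flip p = 0.00391). This setting was chosen after seeing the data, and it does not remove the whole effect of the rule. It still counts p300 intervals up to 1 kb from H3K4me3, where the density was 28.7 per Mb. Those too cannot lie within 5 kb of a site over 10 kb from the mark. Density of p300 also fell with distance, at 14.2, 7.32 and 3.14 per Mb from the nearest class to the most remote. Its part in the neighbour differences was not tested. With a limit of 2 kb in place of 5 kb the differences were -12.4 and 6.53 points. In the separate replicates the shares for the class were 36.3% and 35.3%, although replicate 2 had the longer list. The median distance to the nearest p300 neighbour was 12.4 kb, against 3.88 kb at 1 to 10 kb and 43.2 kb over 50 kb.

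The H3K4me3 peaks that the intervals faced were also examined. Below the interval lay the nearest peak in 3068 cases and above it in 3197. On the opposite side the next H3K4me3 peak was a median of 88.9 kb away (quartiles 48.0 and 185 kb). It was within 50 kb for 26.7% of the intervals and over 100 kb away for 45.9%. Only 5 intervals lay beyond the first or last H3K4me3 peak of a chromosome. The nearest peaks were 4092 different ones, 18.4% of the 22191 on the L and S chromosomes. Their widths had quartiles of 778 and 2081 bp and a median of 1275 bp, compared with 1117 bp for all, and 34.1% of them held p300, compared with 25.2% of all. A wider peak overlaps p300 more easily, and the part of width in this contrast was not tested.

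Counted per interval, the nearest H3K4me3 peak held p300 for 39.8% of the class (38.6 to 41.1%). This was lower than at 1 to 10 kb, where it was 47.8%, by 7.78 ± 2.09 percentage points. It was higher than over 50 kb, where it was 31.2%, by 9.22 ± 2.57 points. Both differences were seen in 9 of 9 pairs (exact sign-flip p = 0.00391, adjusted p = 0.00469) and were also added after values had been seen. The part of peak width in them was not tested. The order did not extend to p300 intervals up to 1 kb from H3K4me3, where the share was 42.0% (39.3 to 44.8%).

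**Figure D3:**
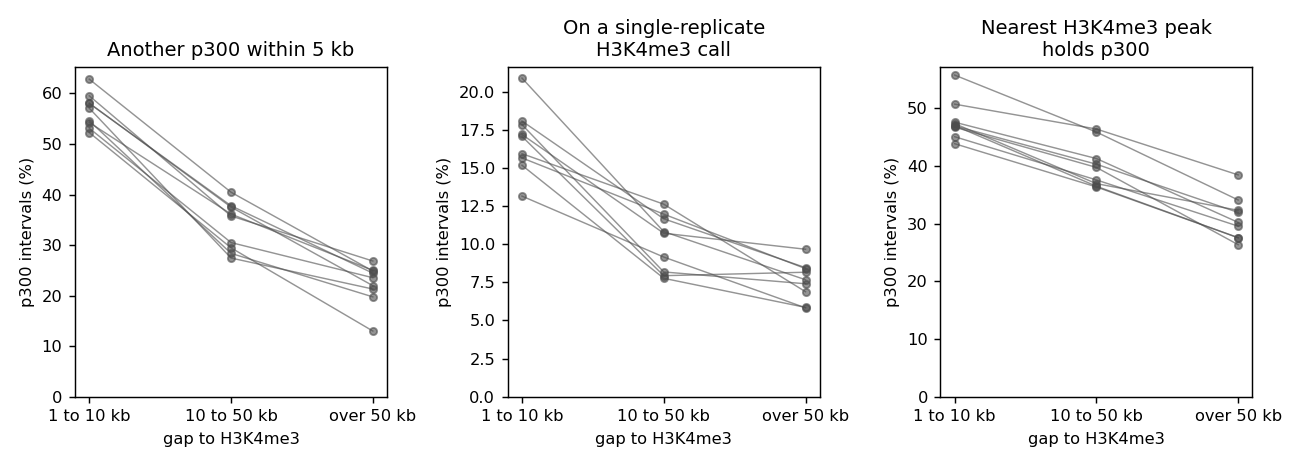
Percentage of p300 intervals with another p300 interval within 5 kb (left), on an H3K4me3 call of 1 replicate (middle) and with p300 inside the nearest H3K4me3 peak (right), by gap to H3K4me3. Each line is 1 of the 9 homeologous chromosome pairs. The 10 to 50 kb class lay below the 1 to 10 kb class in every pair in all 3 panels, and above the over 50 kb class in every pair except 1 in the middle panel.

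The class was spread over many H3K4me3-free stretches. Stretches between consecutive H3K4me3 peaks that held at least 1 of the intervals numbered 3877. That was 24.0% of the 16168 stretches over 20 kb, which are long enough to hold one. Of these, 2586 held 1 interval, 726 held 2, 500 held 3 to 5 and 65 held 6 or more. The last group contained 464 intervals, 7.41% of the class. The stretch with most, 14, ran on 5S from 105739596 to 105962467 (223 kb) and held 21 p300 intervals in all. The p300 calls in it, shared or not, numbered 23 in replicate 1 and 31 in replicate 2. The next stretches were on 6L from 95067 to 181815 (86.7 kb) and on 7S from 83278999 to 83371609 (92.6 kb), each with 10 intervals of the class. The 6L stretch also held 9 H3K4me3 calls of replicate 1 alone and 0 of replicate 2 alone, and the other stretches held 3 and 2 of replicate 1 and 0 of replicate 2.

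Most intervals stood alone. When intervals of the class were chained wherever the gap to the next was at most 5 kb, 4289, or 68.5%, were single, and 1976 formed 810 groups. There were 575 groups of 2, 163 of 3 and 72 of 4 or more, the latter with 337 intervals, or 5.38%. Intervals in groups were wider: the median was 197 bp for single intervals, 218 bp in groups of 2, 222 bp in groups of 3 and 261 bp in groups of 4 or more. In the same order, the replicate 1 calls behind them had median widths of 212, 240, 247 and 287 bp. The replicate 2 medians were 298, 351, 335 and 390 bp, so they did not rise from groups of 2 to groups of 3. A replicate 1 H3K4me3 call lay on 7.93% of the single intervals and on 17.2% of those in groups of 4 or more. This share was between these values in groups of 2 and of 3, and lower in groups of 3 than in groups of 2. These group values are descriptions, with no test.

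The largest group had 8 intervals on chromosome 7S from 87849806 to 87870874 (21.1 kb). Its intervals were 227, 275, 310, 287, 213, 346, 960 and 291 bp wide, and it held 9 calls in replicate 1 and 8 in replicate 2. It lay 15.4 kb above an H3K4me3 peak of 4092 bp, with no other series-wide H3K4me3 for 412 kb in the other direction. The 960 bp interval was the third widest of the class and the only one of the 8 on a replicate 1 H3K4me3 call.

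The next 4 groups had 7 intervals each. On 8L, from 1770160 to 1778463 (8.30 kb, 0.843 intervals per kb), widths ran from 148 to 454 bp, both replicates had 7 calls, and 3 replicate 1 H3K4me3 calls lay within the group. On 8S, from 7142037 to 7150638 (8.60 kb), widths ran from 168 to 379 bp. Each replicate had 6 calls there, so 1 call in each gave more than 1 interval. On 9_10L, from 106241785 to 106250518 (8.73 kb), replicate 1 had 6 calls and replicate 2 had 7, and no member was on a single-replicate H3K4me3 call. On 4L, from 132297655 to 132313319 (15.7 kb), the replicates had 7 and 6 calls, and the next H3K4me3 on the side away from the nearest peak was 614 kb off.

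A further group of 7, on 7L from 122497050 to 122518616 (21.6 kb), was tied with these in number and was picked out after its values had been seen, because it lies on the homeolog of the chromosome with the largest group. Counted from the first interval, the other intervals started at 4.3, 5.3, 9.4, 13.2, 15.4, 18.3 and 20.8 kb on 7S and at 4.5, 9.6, 12.8, 15.4, 19.5 and 21.2 kb on 7L. The 7L group lay 24.3 kb above an H3K4me3 peak of 3977 bp, and the next H3K4me3 above it was 522 kb away. The 7S and 7L groups spanned nearly the same length. So did the groups on 8L, 8S and 9_10L among themselves, at 8.30, 8.60 and 8.73 kb, so a like length was not particular to the pair. The place of the 7S and 7L groups above an H3K4me3 peak wider than the 1117 bp median was not particular to them. The nearest peaks of the other 4 groups were 2731 to 7213 bp wide. The 8L, 8S and 4L groups also lay above theirs, with 41.3, 173 and 614 kb free of the mark beyond. The 7S and 7L groups each had 1 interval on a replicate 1 H3K4me3 call, the fourth on 7L (334 bp) and the seventh on 7S (960 bp). Whether the sequences correspond was not tested, since no genome of the build was at hand. In the groups on 8L and 8S, later starts were at 1.8, 4.5, 5.2, 5.7, 6.8 and 7.8 kb on 8L and at 3.3, 6.6, 7.0, 7.3, 7.9 and 8.3 kb on 8S. No measure of likeness in layout was computed for either pair of groups, so the pairs are not ranked.

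**Figure D4:**
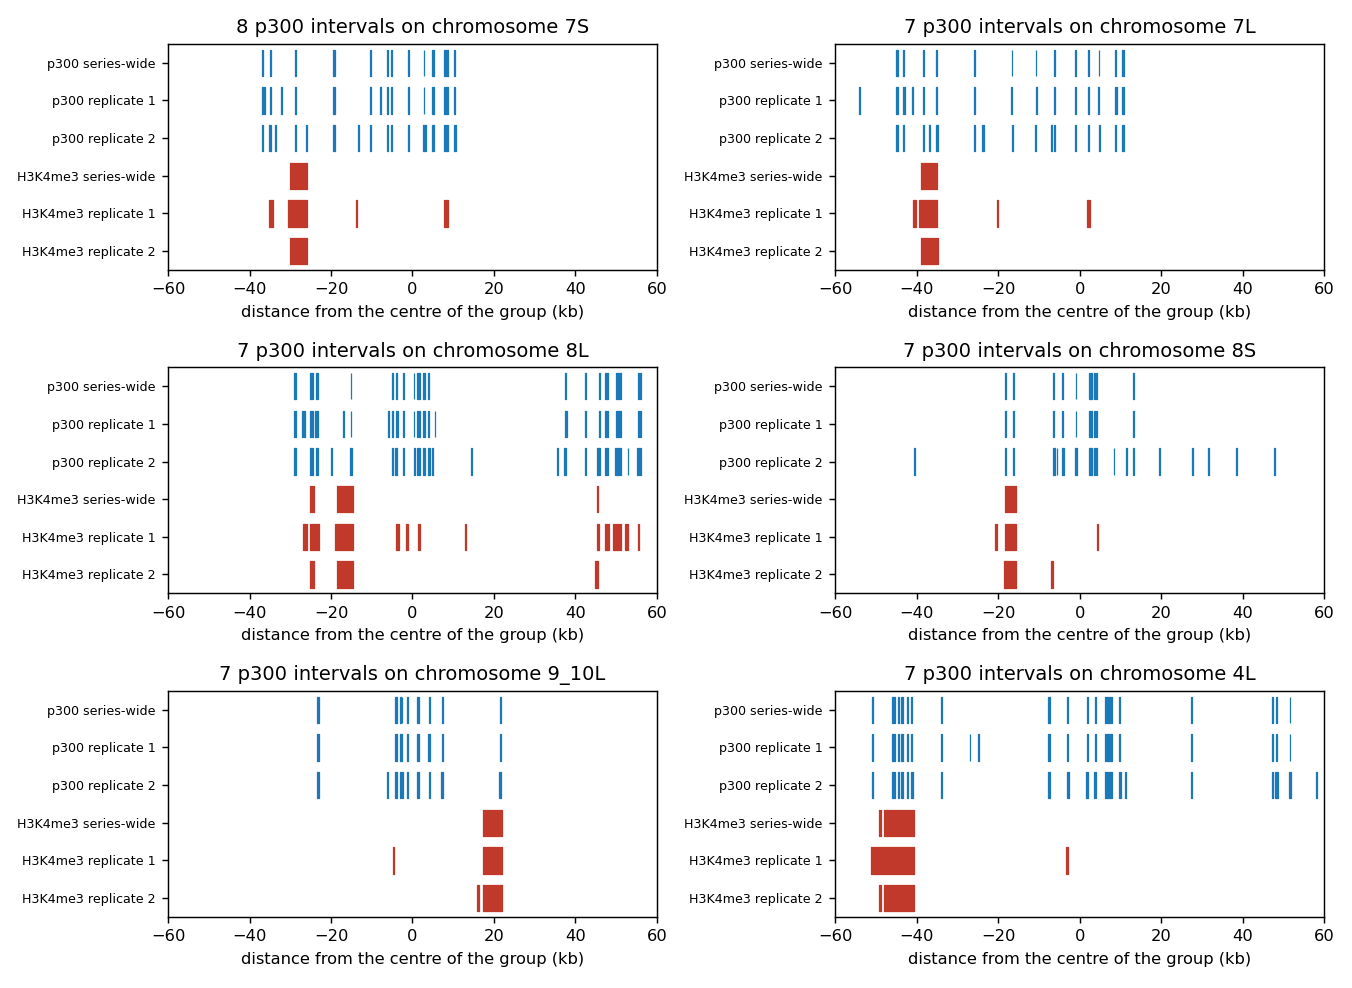
Positions of p300 and H3K4me3 intervals, in kb from the centre of each group, for the largest group (7S), the group of 7 on its homeolog 7L, and the other 4 groups of 7 on 8L, 8S, 9_10L and 4L. Bars are series-wide intervals and replicate calls, with narrow bars drawn slightly widened by their outline. On 7S, 7L, 8S and 4L the group lies above an H3K4me3 peak, with no series-wide H3K4me3 farther above in the window.

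The subgenomes shared the class unequally. The L chromosomes carried 3671 intervals and the S chromosomes 2594, with a mean log2 ratio of 0.51 ± 0.15 over the 9 pairs, or 1.43-fold (higher on L in 9 of 9 pairs, exact sign-flip p = 0.00391, adjusted p = 0.00469). An excess on L was not particular to the class, since all p300 intervals numbered 13268 on L and 9749 on S. At 1 to 10 kb there were 2744 on L and 1908 on S, and over 50 kb 2158 and 1776. L chromosomes are longer and also had more sequence 10 to 50 kb from H3K4me3, 475 Mb against 381 Mb. Per Mb of chromosome span the ratio for the class was 0.24 ± 0.11, or 1.18-fold. Per Mb of sequence 10 to 50 kb from H3K4me3 it was 0.19 ± 0.10, or 1.14-fold, with 7.73 intervals per Mb on L and 6.80 on S. Both corrected ratios were above 0 in 9 of 9 pairs, with the same p-values.

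This corrected difference depended on the p300 library. Among the calls of replicate 1 alone the ratio per Mb of such sequence was 0.17 ± 0.07 (9 of 9 pairs, exact p = 0.00391, adjusted p = 0.00547). Among those of replicate 2 alone it was -0.0053 ± 0.066 (above 0 in 5 of 9 pairs, exact p = 0.836, adjusted p = 0.836), and per Mb of span it was 0.043 ± 0.101 (exact p = 0.242, adjusted p = 0.283). The uncorrected count ratio of replicate 2 was 0.31 and passed (exact p = 0.00391, adjusted p = 0.00547).

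Pair 6 stood apart in the series-wide list. Its log2 ratio was 0.79, from 344 intervals on 6L and 199 on 6S, or 0.43 per Mb of sequence at that range, while the other 8 pairs lay between 0.10 and 0.24 per Mb. In replicate 1 the pair 6 ratio per Mb was 0.27, the highest of the 9 but close to the 0.25 of pair 2. In replicate 2 it was 0.025, below the 0.085 of pair 9_10. Without pair 6 the mean was 0.17 ± 0.05 (8 of 8 pairs, exact sign-flip p = 0.00781, the smallest possible, adjusted p = 0.0104 over 4 tests).

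**Figure D5:**
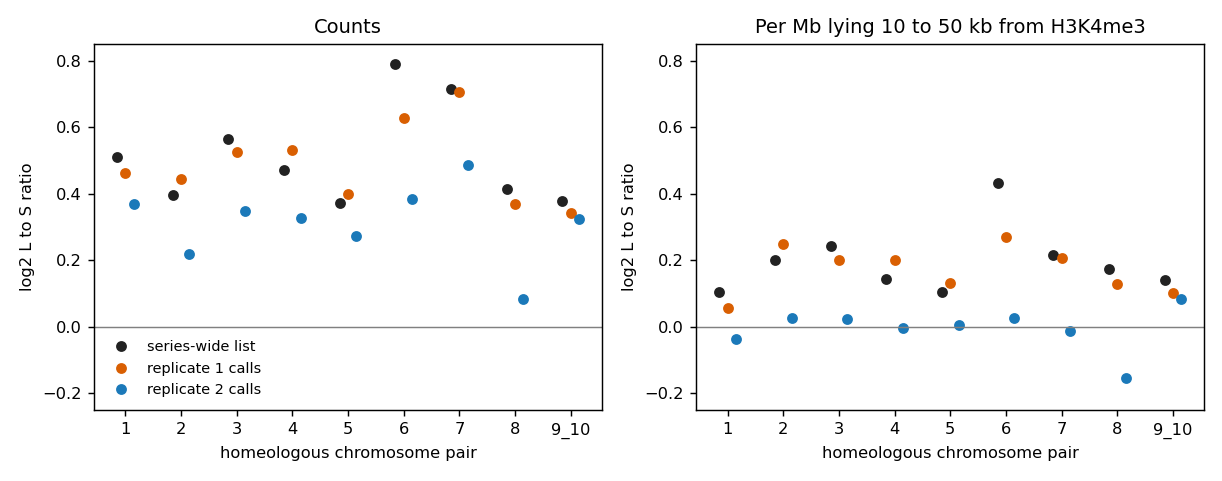
log2 ratio of L to S for p300 intervals 10 to 50 kb from H3K4me3 in each homeologous chromosome pair, as counts (left) and per Mb of sequence at that distance (right). Points are the series-wide list, replicate 1 and replicate 2. All 9 pairs are above 0 in the left panel in each list, and in the right panel the replicate 2 points lie around 0 while the other lists stay above it.

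As a share of all p300 intervals, the class did not differ between subgenomes beyond the spread of the pairs. It made up 27.7% of the p300 intervals on L (26.9 to 28.4%) and 26.6% on S (25.7 to 27.5%). The mean difference was 1.19 ± 2.34 percentage points (positive in 5 of 9 pairs, exact sign-flip p = 0.176, adjusted p = 0.176). The pairs ranged from -1.11 points in pair 1 to 5.99 points in pair 6, where 26.3% of the p300 intervals on 6L and 20.3% of those on 6S were of this class. Median widths were 204 bp on both subgenomes. A p300 neighbour within 5 kb was present for 35.3% on L and 31.5% on S, and a replicate 1 H3K4me3 call for 9.56% and 9.33%.

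Single chromosomes carried between 199 intervals, on 6S, and 518, on 1L. Per Mb of sequence at the same range from H3K4me3, the series-wide density was lowest on 6S, at 5.08, and highest on 7L, at 9.55. In replicate 1 the corresponding calls had densities of 8.03 per Mb on 6S and 12.2 on 7L, and in replicate 2 of 19.9 and 22.4. The extremes were not the same in each replicate. In replicate 1 the lowest density was also on 6S, but the highest was on 8L, at 12.7. In replicate 2 the lowest was on 3S, at 18.5, and the highest on 8S, at 24.8. In the series-wide list the chromosomes of pairs 7, 8 and 9_10 all had at least 8.10 intervals per Mb. Of the other 12 only 4L, with 8.27, reached that level.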

How the data were processed

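ChIP-seq peak lists of whole stage 10.5 embryos were used. MACS2 2.1.0.20140616, bedtools and BWA 0.7.10-r789 are named, per the submitters' processing notes, without their settings. Genome build, threshold and control: not given in the sources used here. In all, 6 lists deposited by the authors were used, which hold interval positions in bp and no other measure. All 24948 H3K4me3 and 25010 p300 series-wide intervals equalled intersections of the replicate calls, so replicates were also analysed singly. Samples were grouped by title.

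A gap is the number of bases between interval edges, and an overlap is at least 1 bp. Chromosome span ends at the last peak of any list. Classes, neighbours, groups and exact sign-flip tests over 9 chromosome pairs were computed with Python 3.11.15, numpy 2.4.6, pandas 2.3.3 and scipy 1.17.1, and the functions were tested on simulated intervals. Shares have Wilson 95% intervals and densities Poisson intervals, for counting error only; they treat intervals as independent. Of 18 tests, 14 were planned and 4 added. The regions, lists and tests were chosen with earlier results of these data known. Regions were named by width, number of intervals in a group or stretch, and position at the bounds or extremes; the 7L group was added. The gene table at hand describes another assembly, so genes and sequences were not used, and 1993 p300 intervals on scaffolds were not counted in the class.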

Additional observations from a re-analysis of the deposited data

Results flagged for a closer look

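Data outside the comparisons held the same kind of site: 360 series-wide p300 intervals on unplaced scaffolds also lay 10 to 50 kb from H3K4me3. Counted separately, whether or not the other replicate had them, 514 calls of replicate 1 and 831 of replicate 2 on scaffolds lay in this range. These sites are listed only because they lie in sequence left out of the counts. No control list was used and no test was made. Scaffold names give no subgenome.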

How the results depend on the processing

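Of 198 recomputed values, 193 kept their direction and their side of the 0.05 threshold (for counts, stayed within 1.5 times). The number of p300 intervals in the class, 6265, ranged from 5298 to 17305 when one replicate of either target was left out, the highest value being p300 replicate 2 alone. The L to S ratio per Mb of span ranged from 0.043 to 0.26 under these omissions and no longer passed at its lowest value, again with p300 replicate 2 alone (exact test, adjusted p = 0.283). Per Mb of sequence 10 to 50 kb from H3K4me3 the range was -0.0053 to 0.21, with the same library giving the negative value. The cause was not tested. Adjusted p-values here are over the tests recomputed under each setting. The excess of single-replicate H3K4me3 over sites beyond 50 kb was 1.28 points when the call had to cover the p300 centre. Like the settings without pair 6 and with neighbours outside H3K4me3 only, this was chosen after seeing the data.

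With lists of the same replicate number compared and averaged, which is the replicate block, the mean count was 12511, the L to S ratio was 0.38 for counts and 0.076 per Mb of such sequence (exact test, adjusted p = 0.00434), and the neighbour differences were -23.9 and 11.5 points. This block changed no call, and the labels do not say that equal numbers share embryos. Recurrence and single-replicate H3K4me3 could not be blocked, since each already uses both replicates. Unknown read depth limits every comparison between replicates.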

Other observations

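Beyond the groups named above, the next group by number and density was a compact one on 4L from 26381092 to 26386255 (5.16 kb), with 6 p300 intervals of 140 to 268 bp and 6 calls in each replicate. Of its intervals, 4 lay on replicate 1 H3K4me3 calls, more than in any of the 6 larger groups, and 0 replicate 2 H3K4me3 calls lay within it. It was chosen after its values had been seen. Both the 7S and the 7L group lay near the last peak of their chromosome, 1.78 Mb and 4.35 Mb from it. A place near a chromosome end was not particular to them. At the other end of their chromosomes, the 8L group began at position 1.8 Mb and the 8S group at 7.1 Mb.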
